A study of Homo sapiens and Mus musculus with 56 samples.

Results

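RS4;11 cells treated with a combination of EPZ004777 and MI-2-2 were compared with RS4;11 cells given DMSO, across all genes read on the human array. The groups were found by sample title, and they hold 5 of the 56 arrays of the study: 3 of the combination and 2 of DMSO, numbered 2 and 3. RS4;11 is an established human B-precursor acute lymphoblastic leukaemia line with a fusion of KMT2A (also called MLL) to AFF1. EPZ004777 inhibits the histone methyltransferase DOT1L, and MI-2-2 inhibits the binding of menin to KMT2A. Combination cells received both compounds for 6 days, and the doses are read here as those of the single treatments, 3 µM EPZ004777 and 10 µM MI-2-2. DMSO cells received the solvent alone for the same 6 days. Further RS4;11 groups received 3 µM EPZ004777 (3 arrays) or 10 µM MI-2-2 (3 arrays), and 2 other human B-precursor lines, SEM with a KMT2A-AFF1 fusion and REH without a KMT2A fusion, had the same 4 treatments. Every group of one line comes from that line grown in culture, the replicates are biological according to the series' design text, and, with 2 DMSO arrays, a change is only as precise as so few arrays allow.

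Menin ties the N-terminal part of KMT2A, which all KMT2A fusion proteins keep, to chromatin. The fusion partners recruit elongation factors and DOT1L, which methylates histone H3 at lysine 79 along transcribed genes. Leukaemias with such fusions keep expressing genes of early progenitors, and both inhibitors are known for lowering part of that expression and for letting leukaemic cells differentiate.

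Levels are log2 signals per probe set as deposited, so a difference of 1 is a change of 2-fold in signal. A value written with ± is a log2 change and its standard error in limma, and a gene was called where p, after Benjamini-Hochberg adjustment over all 13921 genes tested, was under 0.05. A gene carries † where its probe set may also bind transcripts of other genes. In bulk RNA a change in the share of cells with a transcript and a change in its amount per cell cannot be told apart.

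Array medians spanned 5.58 to 5.65 over all 11 RS4;11 arrays. They were lowest on the DMSO arrays (5.577 and 5.575), against 5.604 to 5.646 on the combination arrays. The arrays correlated at 0.996 or more among combination arrays, 0.997 between the DMSO arrays and 0.989 to 0.991 between the groups. RNA quality, read as the 3' minus 5' difference of the GAPDH control probe sets, was 0.39 to 0.49 on the combination arrays and 0.42 to 0.43 on the DMSO arrays. For the actin control probe sets that difference was larger, 2.22 to 2.52 on the combination arrays and 2.40 to 2.42 on the DMSO arrays. All 11 B-precursor markers measured, CD79A, CD22, PAX5, EBF1, VPREB1 and IGLL1 among them, lay above percentile 40 of the array on every one of the 5 arrays. Their summed level was 15.3 to 15.5 in combination cells and 15.4 in DMSO cells. Of 15 T and NK cell markers, 8 lay above that percentile on no array (CD3E, CD3G, CD2, CD4, CD8A, CD5, GNLY and KLRD1), and the summed level was 10.9 to 11.0 in combination cells and 10.9 in DMSO cells. DCN, LUM, EPCAM and CDH1, of 9 stromal and epithelial markers, were above it on no array as well, while that list's sum was 8.17 to 8.32 in combination cells and 7.90 to 7.997 in DMSO cells, with COL1A1† (type I collagen, 1.70 ± 0.16) its called member.

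The combination moved a large share of the transcriptome, and the large changes were mostly rises. Of 13921 genes, 3277 were called (23.5%), 1562 higher (11.2%) and 1715 lower (12.3%) in combination cells. Counts of list members called below stand beside these shares, and a list near them shows nothing particular to its members. Rises were larger than falls: 353 called genes rose by more than 1 on the log2 scale and 85 by more than 2, against 107 and 11 that fell by as much. The median change was 0.56 among called rises and -0.39 among called falls, beside -0.04 over all genes. Part of the rises depend on the filter on dim probe sets: 41 genes passed it only through the combination arrays, and 36 of those were called higher. In 115 of the called rises the probe set was below percentile 40 on both DMSO arrays and above it on all 3 combination arrays, and 49 called falls showed the reverse. The 2 groups did not overlap at all for 49.6% of genes (20.5% with the combination arrays higher, 29.1% with them lower), so separation alone says little about a single gene. Without DMSO replicate 3 the calls numbered 1803, and without DMSO replicate 2 they numbered 2085. With each array centred on its median there were 1319 rises and 2357 falls, so the balance of rises and falls depends on the scaling.

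**Figure D1:**
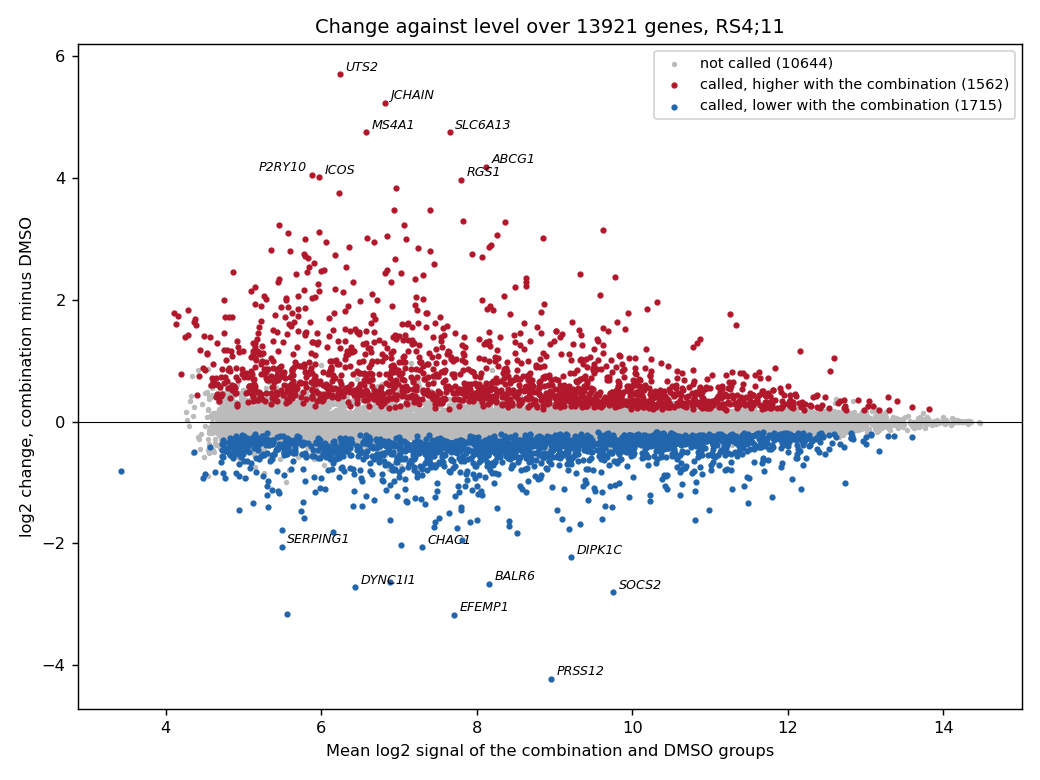
Log2 change (combination minus DMSO, vertical axis) against the mean log2 signal of both groups (horizontal axis) for 13921 genes in RS4;11. Red and blue points are the 1562 genes called higher and the 1715 called lower, grey points are not called, and the named genes are the 8 largest named rises and falls. The red points reach much farther from 0 than the blue.

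The largest rises included genes that mature lymphocytes, germ cells or other tissues use. UTS2†, the gene of the vasoactive peptide urotensin, read 9.09, 9.15 and 9.05 in combination cells and 3.34 and 3.44 in DMSO cells. JCHAIN, which joins the chains of polymeric immunoglobulin, read 9.36, 9.73 and 9.22 with the combination, against 4.20 and 4.19 with DMSO. MS4A1, which encodes CD20 of mature B cells, stood at 9.03, 8.73 and 9.10 in combination cells and at 3.92 and 4.47 in DMSO cells. For all 3 genes, both DMSO arrays lay below percentile 40 of the array and every combination array far above it. The changes were 5.71 ± 0.19, 5.24 ± 0.14 and 4.76 ± 0.17, with adjusted p = 1.06e-08, 2.34e-09 and 1.36e-08 in limma.

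Transporters and receptors followed. SLC6A13†, which carries GABA and taurine into cells, read 10.18, 10.07 and 9.84 with the combination and 5.27 and 5.28 with DMSO, a change of 4.76 ± 0.16. ABCG1†, a cholesterol exporter, read 10.07, 10.48 and 10.09 against 5.79 and 6.26, a change of 4.18 ± 0.16. P2RY10, a receptor for lysophosphatidylserine found on lymphocytes, changed by 4.05 ± 0.12, and its combination arrays (7.83, 8.08 and 7.81) all lay above its DMSO arrays (3.90 and 3.81). Both ICOS (4.01 ± 0.14) and CD28 (3.47 ± 0.16), receptors by which T cells take up costimulation, rose, while 1 of the 6 T and NK cell markers tested did, GATA3 (1.04 ± 0.11), a T cell transcription factor. RGS1† (3.97 ± 0.13) shortens signalling from chemokine receptors, RUBCNL (3.75 ± 0.15) takes part in autophagosome maturation, and DACT1 (3.48 ± 0.10) antagonises Wnt signalling. Leaving GATA3 aside, all of them had adjusted p of 8.33e-08 or lower.

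Several genes normally read in the germ line or in muscle were also among the 25 largest named rises. DAZL, a germ cell RNA-binding protein, changed by 3.30 ± 0.19. SSX1†, a cancer-testis antigen, changed by 3.23 ± 0.16, and CCNA1, the germ cell form of cyclin A, by 3.02 ± 0.17. MYH13, a myosin of eye muscle, read 11.14, 11.18 and 11.26 in combination cells against 8.10 and 7.97 in DMSO cells, so it was well expressed on both sides (3.15 ± 0.07, adjusted p = 1.14e-09). HBD, the delta chain of haemoglobin, gave 3.10 ± 0.17, and it was above percentile 40 on no array but the 3 of the combination, so it was tested only because it was high there. The erythroid markers as a list had a summed level of 8.68 to 8.80 in combination cells and 8.01 to 8.21 in DMSO cells, and ALAS2 was above percentile 40 on no array. Of the 5 members tested HBB† also rose (0.74 ± 0.10), while KLF1 (-0.26 ± 0.16), AHSP (-0.29 ± 0.14) and EPOR (0.21 ± 0.10) were not called. The part that other cell types play in these rises was not tested. AK5†, an adenylate kinase (3.06 ± 0.18), NLGN4X, a neuronal adhesion molecule (2.87 ± 0.07), and MUC19, a mucin (2.91 ± 0.08), also rose. THBS1†, thrombospondin (3.00 ± 0.38), is less sure: another of its probe sets, used where all 44 human arrays shared the fit, gave -0.20.

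**Figure D2:**
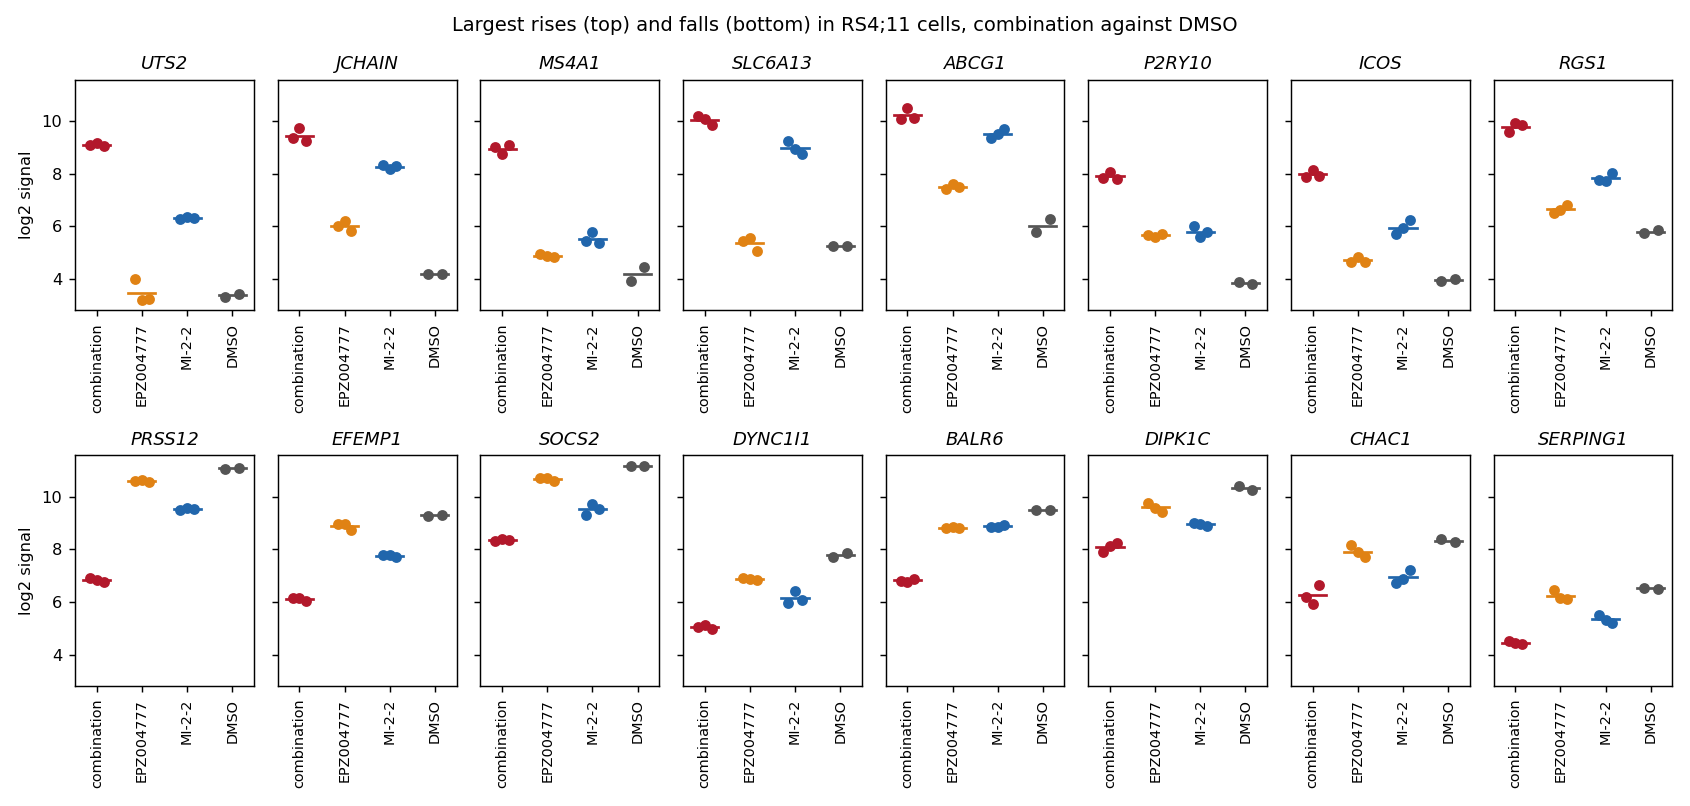
Log2 signal of single arrays (points) and group means (lines) in RS4;11 for the 8 largest named rises (top) and falls (bottom), with the combination at the left, then EPZ004777, MI-2-2 and DMSO. The combination arrays lie above both DMSO arrays for every gene of the top row and below both for every gene of the bottom row.

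B cell genes rose more often than they fell, and the enzymes that rearrange antigen receptors were among the falls. Among 24 cell surface antigens of B cells tested, 13 rose and none fell, against 11.2% and 12.3% of all genes, and the median change of the list was 0.33. MS4A1 led, followed by FCGR2B† (3.11 ± 0.21), the inhibitory Fc receptor of B cells. MME†, the antigen CD10, read 8.25, 7.85 and 8.19 in combination cells and 5.65 and 5.54 in DMSO cells (2.50 ± 0.11). FCRLA (1.76 ± 0.07), an Fc receptor-like protein inside the cell, CCR7 (1.31 ± 0.17), the homing receptor for lymph nodes, FCRL5† (0.83 ± 0.14), which passed the filter through its combination arrays and 1 other, and CD38† (0.80 ± 0.09) rose too. The precursor antigen CD34† was not called, at 5.07, 5.55 and 5.52 with the combination and 5.34 and 5.43 with DMSO (adjusted p = 0.99), and CD9 gave -0.21 ± 0.07 (adjusted p = 0.0552).

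The pre-B cell receptor and recombination list of 20 genes had 8 rises and 4 falls, against 11.2% and 12.3% of all genes. Its median was 0.10. VPREB3, a chaperone of the pre-B cell receptor, read 11.27, 11.35 and 11.27 in combination cells, against 9.33 and 9.33 in DMSO cells, and changed by 1.97 ± 0.09 (adjusted p = 7.06e-08). The receptor's adaptor BLNK† changed by 0.96 ± 0.08 and its inhibitory coreceptor CD72† by 0.47 ± 0.09. The genes that rearrange antigen receptors went down instead: DNTT (-0.72 ± 0.07), the terminal transferase, and the recombinases RAG1 (-0.54 ± 0.08) and RAG2 (-0.44 ± 0.07). All 3 had their combination arrays below both DMSO arrays, and RAG1, for one, read 12.17, 12.32 and 12.14 with the combination and 12.79 and 12.71 with DMSO. The surrogate light chain genes VPREB1 (0.10 ± 0.07) and IGLL1 (-0.04 ± 0.07) were not called. The number of rises was 4 without DMSO replicate 2, 5 without DMSO replicate 3 or combination replicate 2, and 5 with each array centred on its median.

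The upstream stretches of VPREB3 and of CD53, a tetraspanin of leukocytes that also rose (0.30 ± 0.06), are printed because they hold the octamer, a motif known from B cell promoters. Each is the 250 bases before the gene's start in RefSeq on GRCh38.p14, 5′ to 3′, and capitals mark the octamer, which both genes carry on the opposite strand. VPREB3 lies at chr22:23754426-23754675 on the minus strand, with the match starting at position -47 from the start, and CD53 at chr1:110870960-110871209 on the plus strand, with the match at position -46.
VPREB3: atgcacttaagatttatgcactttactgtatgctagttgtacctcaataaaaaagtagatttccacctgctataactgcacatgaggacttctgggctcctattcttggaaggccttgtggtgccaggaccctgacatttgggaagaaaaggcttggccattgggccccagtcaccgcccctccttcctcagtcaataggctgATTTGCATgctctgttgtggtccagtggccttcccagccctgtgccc
CD53: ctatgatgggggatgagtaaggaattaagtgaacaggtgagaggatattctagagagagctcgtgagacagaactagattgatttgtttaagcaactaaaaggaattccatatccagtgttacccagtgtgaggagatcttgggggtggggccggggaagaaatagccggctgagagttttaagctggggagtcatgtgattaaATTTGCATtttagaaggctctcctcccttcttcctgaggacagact
The letters searched were ATGCAAAT on both strands, in windows of 250 bases before to 50 after 1 start a gene. They were in 1.8% of all 27305 promoters and in 1.37% of the 11164 promoters of tested genes. Of 62 promoters of the B cell lists 3 held them, those of VPREB3, CD53 and PRKCB†, a protein kinase C of B cell receptor signalling, and PRKCB's own probe sets differed in sign. A match describes the sequence and is no proof of a site or a cause.

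Transcription factors of the B lineage gave 8 rises and 3 falls among 25 tested (median 0.08), against 11.2% and 12.3% of all genes. The rises numbered 5 without DMSO replicate 2. ID2†, an inhibitor of E proteins, rose most, at 8.45, 8.73 and 8.59 with the combination and 5.89 and 5.28 with DMSO (3.00 ± 0.16). IKZF3, or Aiolos, which acts from the small pre-B stage on, read 8.25, 7.99 and 8.22 with the combination and 6.22 and 6.41 with DMSO (1.84 ± 0.11, adjusted p = 9.21e-07). BACH2† (0.84 ± 0.08) and POU2AF1 (0.36 ± 0.06), regulators of later B cell stages, and AFF3 (0.75 ± 0.09) rose. The early factors EBF1 (-0.16 ± 0.07), TCF3 (-0.01 ± 0.05) and FOXO1† (-0.09 ± 0.07) were not called, and other probe sets of EBF1 and TCF3 had the opposite sign.

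Among 18 genes of the plasma cell programme 6 rose and 3 fell (median 0.09), against 11.2% and 12.3% of all genes. TNFRSF17, the receptor BCMA, read 7.44, 7.98 and 7.95 in combination cells and 5.03 and 4.81 in DMSO cells (2.86 ± 0.15). MZB1 (0.92 ± 0.12), which helps immunoglobulin secretion, rose beside JCHAIN. XBP1, the secretory regulator of plasma cells, was not called (-0.16 ± 0.12), nor was SDC1, their surface marker CD138 (0.30 ± 0.13), and the probe sets of each differed in sign. IRF4, needed for plasma cells to form, fell (-0.37 ± 0.07), but the mean of its probe sets just missed the threshold (adjusted p = 0.0508 in limma). Without DMSO replicate 2 the list had 1 fall in place of 3.

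In the MHC class II list, whose genes present antigen to CD4 T cells, 8 of 17 rose, none fell and 9 were not called, against 11.2% higher and 12.3% lower among all genes. The median of the list was 0.22. HLA-DMB read 10.24, 10.29 and 10.22 in combination cells and 8.96 and 9.01 in DMSO cells (1.27 ± 0.08), and its partner HLA-DMA† changed by 0.77 ± 0.07. Both load peptides onto class II molecules. HLA-DQA1 (0.71 ± 0.08), HLA-DQB1† (0.59 ± 0.07) and HLA-DRA† (0.34 ± 0.06) encode the presenting chains, and their probe sets may share sequence with other HLA genes. The list's master regulator CIITA read 9.78, 9.64 and 9.56 with the combination and 9.71 and 9.62 with DMSO, which overlap (-0.01 ± 0.09). None of 17 MHC class I genes, which present to CD8 T cells, was called in limma in either direction, and they spanned -0.14 to 0.28 (median 0.02), B2M†, the shared light chain, among them (0.06 ± 0.07).

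Of 15 ligands that costimulate T cells 7 rose and 2 fell (median 0.16), against 11.2% and 12.3% of all genes. CD86 read 8.83, 8.85 and 8.96 in combination cells and 5.17 and 4.92 in DMSO cells, a change of 3.84 ± 0.15 (adjusted p = 3.59e-08). TNFSF9 (0.73 ± 0.09), or 4-1BB ligand, CD70 (0.69 ± 0.08) and CD58† (0.46 ± 0.08) rose, and TNFSF13B†, the B cell survival factor BAFF, fell (-0.60 ± 0.09). Without DMSO replicate 2 the list had 4 rises. The interferon-stimulated list of 35 had 11 rises and 1 fall (median 0.13), beside the same shares of all genes. It had 6 rises without DMSO replicate 3. Its rises were led by GBP2 (3.22 ± 0.08), a guanylate-binding protein, and PARP9† (1.64 ± 0.08), and MX2 (0.79 ± 0.08) and IRF9 (0.56 ± 0.10) rose as well. The classical markers ISG15† (0.17 ± 0.09) and IFIT1 (-0.37 ± 0.16) were not called. NF-kappaB targets were split, with 5 of 14 higher (CCL4, TRAF1, IER3†, CD83 and TNFAIP3†, at 0.48 to 1.27) and 4 lower. Of the 4 falls 1 was left without DMSO replicate 2, DMSO replicate 3, combination replicate 1 or combination replicate 2. NFKBIA†, the inhibitor of NF-kappaB, gave -0.54 ± 0.11, a call lost without DMSO replicate 3 (adjusted p = 0.057).

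**Figure D3:**
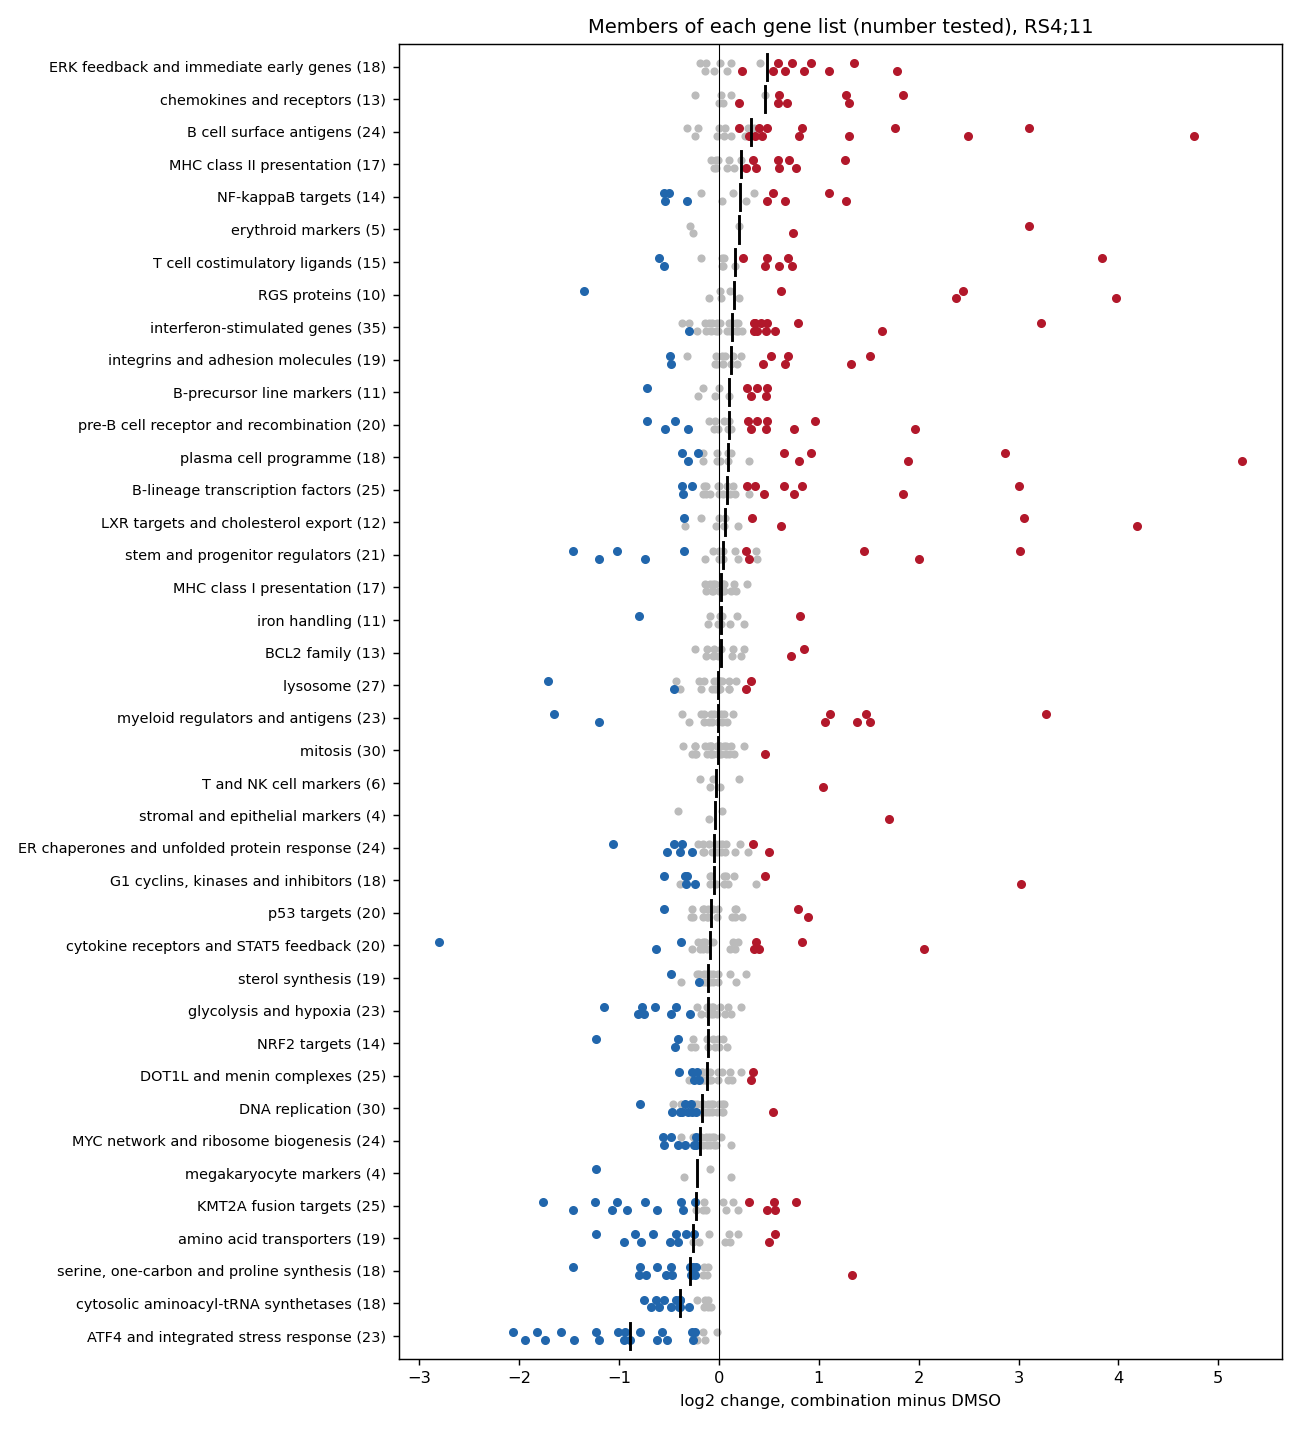
Log2 change (combination minus DMSO) of every tested member of each gene list in RS4;11, with the number tested in brackets and lists ordered by their median (black bar). Red members were called higher, blue lower and grey were not called. The stress response, tRNA synthetase, serine and transporter lists sit lowest, and the ERK, chemokine and B cell surface lists sit highest.

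Among the 40 lists, those of ERK feedback and of chemokines had the highest medians. Of 18 ERK feedback and immediate early genes 10 rose and none fell, against 11.2% and 12.3% of all genes, with a median of 0.48. SPRY1, an inhibitor of receptor signalling to ERK, read 10.82, 11.03 and 10.63 in combination cells and 9.04 and 9.05 in DMSO cells (1.78 ± 0.12). PHLDA1 (1.35 ± 0.11), SPRY4† (0.92 ± 0.13) and the phosphatases DUSP4† (0.74 ± 0.14) and DUSP6† (0.54 ± 0.09) rose, while EGR1† was not called (-0.05 ± 0.11). Of 25 chemokines and chemoattractant receptors listed 24 were on the array and 13 were tested. Of the 13, 7 rose and none fell (median 0.46), against 11.2% and 12.3% of all genes. The filter can keep a dim gene that is high with the combination and drop one that stays dim. S1PR1 (1.84 ± 0.18), which lets lymphocytes leave tissue, and CXCL16 (0.60 ± 0.09) were among the rises. Of 10 RGS proteins, which switch off G protein signals, 4 rose and 1 fell. RGS13 (2.44 ± 0.10), RGS2 (2.38 ± 0.06) and RGS1† rose by more than 2 units. RGS16† fell, at 6.48, 6.70 and 6.82 with the combination against 8.10 and 7.92 with DMSO (-1.35 ± 0.12). Integrins gave 6 rises and 2 falls of 19 (median 0.12), against 11.2% and 12.3% of all genes. ITGB7 (1.33 ± 0.08) and ITGA4 (0.44 ± 0.07), the chains of the gut homing integrin, and ITGB2† (0.69 ± 0.12) and ITGAM† (1.52 ± 0.17), those of the complement receptor Mac-1, rose as pairs, and CD99† fell (-0.49 ± 0.07).

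Of 39 myeloid genes listed 23 were tested. Of these 6 rose and 2 fell, against 11.2% and 12.3% of all genes, and the median was -0.01. Among those not tested were CD14, CD33 and CD68. MPEG1, the macrophage perforin, read 9.99, 10.11 and 9.89 in combination cells and 6.75 and 6.71 in DMSO cells (3.27 ± 0.08). CEBPA (1.47 ± 0.11), the myeloid transcription factor, LYZ† (1.38 ± 0.16), lysozyme, and TLR4† (1.06 ± 0.12) rose as well. The granule protease CTSG read 7.01, 6.997 and 7.25 with the combination and 8.77 and 8.71 with DMSO (-1.65 ± 0.10), and CEBPB fell (-1.20 ± 0.08). MPO, myeloperoxidase, was not called (-0.10 ± 0.11). In the list of liver X receptor targets, which handle excess cholesterol, 4 of 12 rose and 1 fell. ABCA1† read 9.69, 9.91 and 9.78 in combination cells and 6.81 and 6.66 in DMSO cells (3.06 ± 0.12), and MYLIP† changed by 0.62 ± 0.08, while APOE† was not called (-0.18 ± 0.09). Sterol synthesis gave 2 falls in 19 genes (median -0.11), against 12.3% of all genes, and none without DMSO replicate 3.

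The largest falls included secreted proteins, an inhibitor of cytokine signalling and a long non-coding RNA. PRSS12, the protease neurotrypsin, read 6.92, 6.84 and 6.77 in combination cells, against 11.05 and 11.09 in DMSO cells. Its change of -4.22 ± 0.07 had the smallest adjusted p of all genes (adjusted p = 6.15e-11 in limma). EFEMP1†, the matrix protein fibulin-3, read 6.14, 6.17 and 6.05 with the combination and 9.27 and 9.32 with DMSO (-3.17 ± 0.08). SOCS2, which damps cytokine signalling through STAT5, read 8.31, 8.41 and 8.35 with the combination and 11.16 and 11.16 with DMSO (-2.81 ± 0.10). In each of these the replicates lay within 0.2 of each other and the groups far apart. BALR6, a long non-coding RNA described in B cell leukaemia, changed by -2.67 ± 0.06 and DYNC1I1†, a dynein chain, by -2.72 ± 0.12. SERPING1, the inhibitor of complement C1, fell below percentile 40 on all 3 combination arrays (4.52, 4.46 and 4.41, against 6.52 and 6.51 with DMSO). MYO6† (-1.79 ± 0.10), DYSF (-1.74 ± 0.17), CTSH† (-1.71 ± 0.13), OSCAR (-1.68 ± 0.16), CCN2 (-1.62 ± 0.19) and ATP10A (-1.60 ± 0.07) were among the 25 largest named falls. TPH2, a neuronal tryptophan hydroxylase, fell too (-1.50 ± 0.07).

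Among 25 known targets of KMT2A fusion proteins that were tested, of 31 listed, 11 fell and 5 rose, against 12.3% and 11.2% of all genes. Their median was -0.23. SUPT3H†, a component of transcriptional coactivator complexes, changed most (-1.77 ± 0.08), at 8.35, 8.17 and 8.37 in combination cells and 10.04 and 10.09 in DMSO cells. RUNX2, a transcription factor, read 10.18, 10.24 and 10.35 with the combination and 11.75 and 11.68 with DMSO (-1.46 ± 0.08). IGF2BP2, an RNA-binding protein, read 11.28, 11.12 and 11.12 with the combination and 12.51 and 12.33 with DMSO (-1.24 ± 0.08). The groups were apart for all 3 by at least 1 log2 unit. HMGA2† (-1.07 ± 0.10), PROM1† (-1.02 ± 0.06), the stem cell antigen CD133, JMJD1C (-0.92 ± 0.06), a histone demethylase, FUT4 (-0.74 ± 0.06) and MEF2C† (-0.36 ± 0.06) fell. MEIS1, the homeobox cofactor by which this class of leukaemia is often followed, was not among the falls: it read 12.18, 12.18 and 12.21 in combination cells and 11.89 and 11.89 in DMSO cells (0.30 ± 0.05, adjusted p = 0.00201), a call lost where all 44 human arrays shared the fit. CPEB2 rose by 0.77 ± 0.11, and MYB (0.04 ± 0.07) and BCL2 (-0.13 ± 0.06) were not called. HOXA3, HOXA5, HOXA7, HOXA9, HOXA10 and RUNX1, the other 6 of the list, were not analysed here.

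Neither of the genes of the targeted proteins was called. DOT1L read 8.28, 8.01 and 8.24 in combination cells and 8.45 and 8.52 in DMSO cells (-0.30 ± 0.13, adjusted p = 0.119). MEN1†, which encodes menin, read 8.33, 8.11 and 8.40 in combination cells and 8.38 and 8.47 in DMSO cells (-0.15 ± 0.15), and the 2 groups overlap. KMT2A gave -0.17 ± 0.07 (adjusted p = 0.125) and AFF1 -0.22 ± 0.06 (adjusted p = 0.0162). Whether these probe sets read the fusion transcript was not examined, and other KMT2A probe sets had the opposite sign. Over the 25 genes of the complexes 2 rose and 5 fell (median -0.12), with 1 fall without DMSO replicate 2, 2 falls without DMSO replicate 3 or combination replicate 1, and no rise without DMSO replicate 3. The call of AFF1 was lost without DMSO replicate 2 or 3. Stem and progenitor regulators were balanced, 5 up and 5 down of 21 (median 0.04), against 11.2% and 12.3% of all genes. HOPX† read 10.30, 10.35 and 10.44 with the combination and 7.34 and 7.34 with DMSO (3.02 ± 0.08), and ZNF521 (2.00 ± 0.13) and SPINK2 (1.46 ± 0.07) rose. ERG†, a transcription factor of blood stem cells, fell (-1.20 ± 0.10), as did ANGPT1 (-0.74 ± 0.08), a ligand of the TEK receptor.

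The list with the lowest median held the genes that ATF4 drives when amino acids are short or the endoplasmic reticulum is loaded. Of 23 integrated stress response genes none rose and 19 fell, beside 11.2% and 12.3% of all genes, with a median of -0.89. CHAC1, which degrades glutathione, read 6.18, 5.94 and 6.64 in combination cells and 8.37 and 8.27 in DMSO cells (-2.07 ± 0.20, adjusted p = 3.25e-05). TRIB3, a pseudokinase, read 7.07, 6.79 and 6.66 with the combination and 8.81 and 8.75 with DMSO (-1.94 ± 0.15). The combination arrays of both genes lay below both DMSO arrays, and those of CHAC1 were spread more widely. SESN2† (-1.83 ± 0.15), a leucine sensor, STC2 (-1.75 ± 0.13), JDP2 (-1.58 ± 0.18), ATF3† (-1.46 ± 0.19) and DDIT3 (-1.01 ± 0.13), or CHOP, fell with them. ATF4 itself moved little, at 13.46, 13.44 and 13.49 in combination cells and 13.74 and 13.70 in DMSO cells (-0.26 ± 0.06), a call lost without DMSO replicate 2 (adjusted p = 0.0638). ASNS†, asparagine synthetase, was not called (8.87, 8.48 and 8.93 in combination cells and 8.72 and 8.84 in DMSO cells, which overlap). The list kept 17 to 19 falls when any 1 array was left out.

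The upstream stretches of CHAC1 and ATF3† are printed because they hold the element that ATF4 and C/EBP proteins are known to bind. Each is the 250 bases before the start in RefSeq on GRCh38.p14, 5′ to 3′, with the element in capitals, on the opposite strand in CHAC1. CHAC1 lies at chr15:40953221-40953470 on the plus strand, with the match starting at position -209, and ATF3 at chr1:212565157-212565406 on the plus strand, at position -191, where the first of its listed starts was used.
CHAC1: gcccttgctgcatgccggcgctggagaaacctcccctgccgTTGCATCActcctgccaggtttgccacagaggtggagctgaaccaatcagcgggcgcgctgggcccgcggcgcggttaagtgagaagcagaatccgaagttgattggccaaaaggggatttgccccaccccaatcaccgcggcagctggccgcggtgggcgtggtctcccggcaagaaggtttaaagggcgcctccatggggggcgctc
ATF3: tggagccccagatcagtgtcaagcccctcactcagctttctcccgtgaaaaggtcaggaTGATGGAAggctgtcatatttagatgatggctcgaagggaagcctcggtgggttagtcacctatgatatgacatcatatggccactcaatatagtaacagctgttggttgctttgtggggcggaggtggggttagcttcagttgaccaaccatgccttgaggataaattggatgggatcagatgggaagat
The letters searched were TGATGNAA on both strands in the same windows, and they can overlap the octamer. They were in 3.67% of all promoters and 1.94% of those of tested genes. Of 20 promoters of tested stress genes 5 held them: those of CHAC1, ATF3 and SLC3A2, which fell, and those of ASNS and NARS1, which were not called. Of the 17 promoters of members that fell, 14 hold no such letters in this window.

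**Figure D4:**
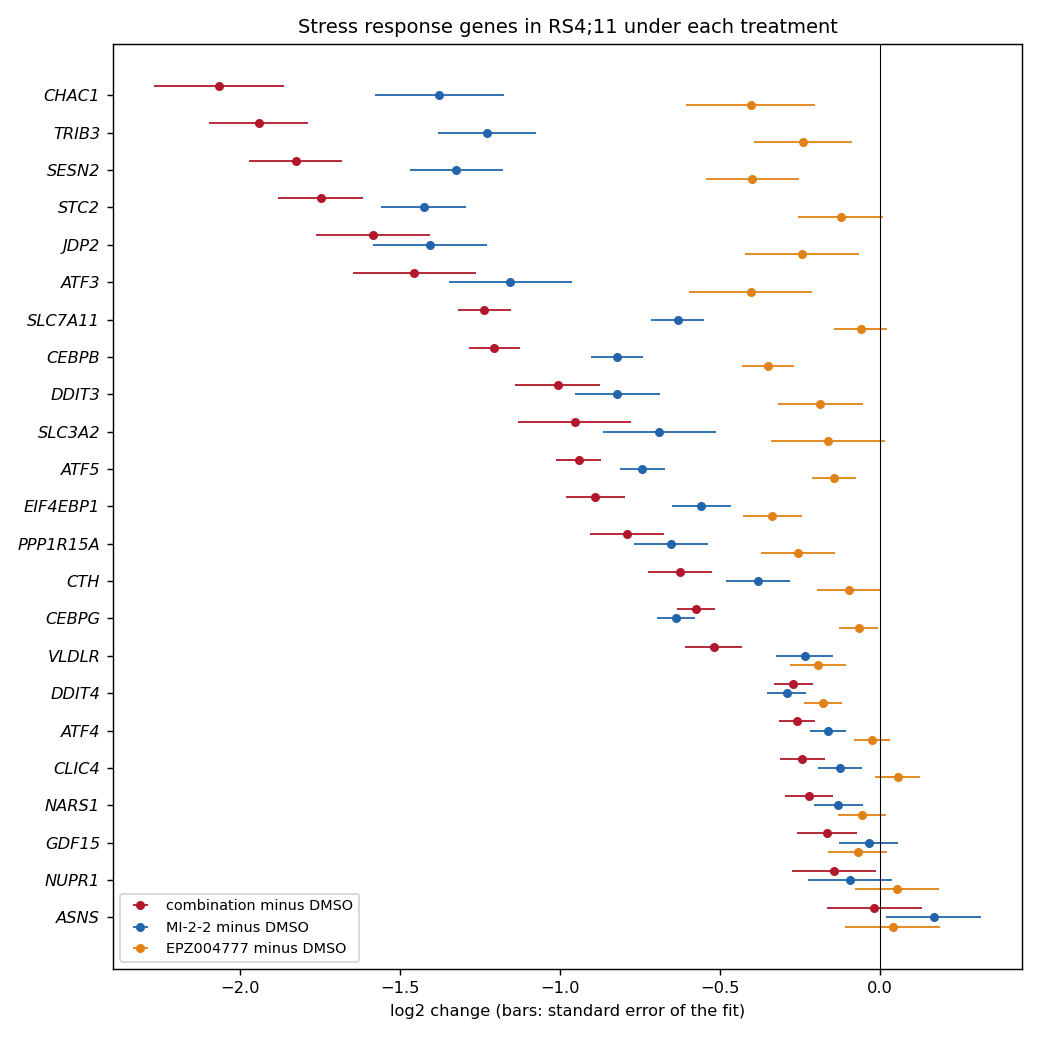
Log2 change against DMSO of the 23 stress response genes in RS4;11, for the combination (red), MI-2-2 (blue) and EPZ004777 (orange), with bars of 1 standard error. The 3 comparisons share the 2 DMSO arrays. CHAC1 shows -2.07, -1.38 and -0.40 in that order, and ASNS lies near 0 for each.

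Lists of amino acid import, amino acid synthesis and tRNA charging had more falls than rises. Lists share members, SLC3A2† of the stress list being also a transporter, so their falls are not separate counts. Of 19 amino acid transporters 10 fell and 2 rose (median -0.26), and 6 fell without DMSO replicate 3. SLC7A11, the cystine importer, read 9.38, 9.32 and 9.30 in combination cells and 10.64 and 10.51 in DMSO cells (-1.24 ± 0.08). Its heavy chain SLC3A2† (-0.95 ± 0.18), the arginine transporter SLC7A3 (-0.84 ± 0.09) and the leucine transporter SLC7A5† (-0.50 ± 0.09) fell. In serine, one-carbon and proline synthesis 13 of 18 fell and 1 rose (median -0.29), and 7 fell without DMSO replicate 3. The serine enzymes PHGDH (-0.80 ± 0.08), PSAT1† (-0.80 ± 0.08) and PSPH (-0.47 ± 0.10) and the mitochondrial folate enzymes ALDH1L2 (-1.47 ± 0.13), MTHFD2 (-0.53 ± 0.09) and SHMT2† (-0.48 ± 0.06) were lower. GLDC, which breaks glycine down, rose, at 10.21, 10.20 and 10.27 with the combination against 8.86 and 8.93 with DMSO (1.33 ± 0.08). Of 18 cytosolic aminoacyl-tRNA synthetases 12 fell and none rose, with a median of -0.39. GARS1† (-0.75 ± 0.10), WARS1 (-0.68 ± 0.09) and SARS1 (-0.63 ± 0.07) led them, for glycine, tryptophan and serine, while HARS1 (-0.11 ± 0.08) and RARS1 (-0.08 ± 0.08), for histidine and arginine, were not called.

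Among 24 genes of the endoplasmic reticulum and its unfolded protein response 6 fell and 2 rose (median -0.05), against 12.3% and 11.2% of all genes. HERPUD1† read 10.87, 10.94 and 10.91 in combination cells and 11.97 and 11.98 in DMSO cells (-1.07 ± 0.07), and the sensor ATF6 changed by -0.52 ± 0.09. The chaperones HSPA5 (0.00 ± 0.11) and CALR† (0.16 ± 0.09) were not called, although the mean of all HSPA5 probe sets gave -0.28. In glycolysis and hypoxia 8 of 23 fell and none rose (median -0.11), with ALDOC (-1.16 ± 0.10), TXNIP† (-0.77 ± 0.13), which limits glucose uptake, VEGFA† (-0.75 ± 0.13) and PDK1 (-0.64 ± 0.08) among them, and 5 fell without DMSO replicate 2. Of 14 NRF2 targets 3 fell, GCLC (-0.44 ± 0.07) among them, against 12.3% of all genes. In the lysosome list 2 of 27 fell and 2 rose, against 12.3% and 11.2% of all genes. The falls were the cathepsins CTSH† and CTSC (-0.45 ± 0.07), and other probe sets of CTSC had the opposite sign.

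Of 30 mitosis genes 1 rose and none fell, with a median of -0.01. The rise was that of the proliferation marker MKI67† (0.46 ± 0.10), a call lost without DMSO replicate 2 (adjusted p = 0.0661). Of 30 DNA replication genes 9 fell and 1 rose (median -0.17). PRIM1, the primase subunit, read 10.78, 10.76 and 10.83 in combination cells and 11.49 and 11.68 in DMSO cells (-0.79 ± 0.08), and RFC5, of the clamp loader, changed by 0.54 ± 0.06. Of the 9 falls 1 was left without DMSO replicate 3 and 4 without DMSO replicate 2. MYC† read 10.47, 10.56 and 10.85 with the combination and 11.24 and 11.10 with DMSO (-0.55 ± 0.12, adjusted p = 0.0061 in limma). Its call was lost without DMSO replicate 2. MYC is itself in the list of its network and of ribosome biogenesis, where MXD1, MXI1 and MNT fell too. What these falls mean for MYC activity was not tested. Of the list's 24 genes 8 fell (median -0.19), against 12.3% of all genes. That count was 2 without DMSO replicate 3 and 3 without DMSO replicate 2 or combination replicate 2. Among 18 G1 regulators 5 fell and 2 rose, with CDKN1A†, the inhibitor p21, lower (-0.55 ± 0.08), and 2 fell without DMSO replicate 3 and 3 without DMSO replicate 2 or combination replicate 1. p53 targets had 2 rises and 1 fall of 20 (median -0.08), against 11.2% and 12.3% of all genes. The rises were TP53INP1 (0.90 ± 0.12) and PLK2 (0.79 ± 0.14), while MDM2† was not called (0.17 ± 0.07). In the BCL2 family 2 of 13 rose and none fell (median 0.02), against 11.2% and 12.3% of all genes, which is near those shares. The 2 rises were the pro-apoptotic genes BIK (0.85 ± 0.12) and BMF (0.72 ± 0.11).

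In the list of cytokine receptors and STAT5 feedback 5 of 20 rose and 3 fell (median -0.09), against 11.2% and 12.3% of all genes. IL10RA, a receptor for interleukin-10, rose most, at 6.25, 6.06 and 6.56 in combination cells and 4.31 and 4.16 in DMSO cells (2.06 ± 0.21). STAT5B fell (-0.63 ± 0.08), as did SOCS2, a feedback target of STAT5, and FLT3. Other members went the other way: SOCS1, PIM1 (0.41), JAK2 and STAT3 rose, though the probe sets of SOCS1 differed in sign. What this means for STAT5 signalling was not tested. IL7R, a cytokine receptor of B precursors, was not called (0.11 ± 0.06). Without DMSO replicate 3 the list had 2 rises, without DMSO replicate 2 it had 3, and without combination replicate 3 it had 5 falls. Iron genes gave 1 rise and 1 fall of 11, near the 11.2% and 12.3% of all genes, the fall being the ferric reductase CYBRD1† (-0.80 ± 0.07). The platelet integrin ITGA2B fell (-1.23 ± 0.14), 1 of 4 megakaryocyte markers tested, whose sum was 8.53 to 8.60 in combination cells and 8.93 to 8.99 in DMSO cells. 

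Whether the combination went beyond either compound was tested with the single treatments in the same fit. The combination differed from EPZ004777 alone for 2719 genes (19.5%) and from MI-2-2 alone for 1501 (10.8%). Against DMSO, against EPZ004777 and against MI-2-2 alike, 511 genes were higher in combination cells and 251 were lower. The comparison with MI-2-2 had 983 calls without MI-2-2 replicate 1. MS4A1 was among the rises: it read 9.03, 8.73 and 9.10 with the combination, 4.95, 4.88 and 4.84 with EPZ004777, 5.46, 5.78 and 5.37 with MI-2-2 and 3.92 and 4.47 with DMSO. The combination exceeded EPZ004777 by 4.06 ± 0.15 and MI-2-2 by 3.41 ± 0.15. PRSS12 was among the falls, at 6.92, 6.84 and 6.77 with the combination, 10.58, 10.63 and 10.54 with EPZ004777 and 9.48, 9.56 and 9.54 with MI-2-2. The combination differed from them by -3.74 ± 0.06 and -2.68 ± 0.06. P2RY10 stood about midway with each compound, so the combination was higher by 2.24 ± 0.10 than EPZ004777 and by 2.11 ± 0.10 than MI-2-2.

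Other genes did not pass the test against one of the compounds. DAZL read 9.47, 9.83 and 9.13 with the combination and 9.71, 9.57 and 9.27 with MI-2-2, a difference of -0.04 ± 0.17 with a 95% interval of -0.43 to 0.34, whereas EPZ004777 left it at 6.45, 6.67 and 6.53. CTSG (-0.13 ± 0.09, interval -0.33 to 0.08), MYO6† (0.03 ± 0.09, interval -0.17 to 0.23) and NIBAN1† (-0.06 ± 0.06, interval -0.21 to 0.08) likewise did not pass against MI-2-2 alone. ABCA1† differed from MI-2-2 by 0.33 ± 0.11 (adjusted p = 0.084), with an interval of 0.09 to 0.57, and EPZ004777 alone raised it by 1.64 ± 0.12. Against EPZ004777 alone, HOPX† gave 0.17 ± 0.07 (adjusted p = 0.14, interval 0.01 to 0.34), and MI-2-2 alone raised it by 2.07 ± 0.08. BLNK† (0.13 ± 0.07, interval -0.03 to 0.29) and BACH2† (0.09 ± 0.07, interval -0.07 to 0.24) did not pass against EPZ004777 alone, and exceeded MI-2-2 by 0.73 ± 0.07 and 0.78 ± 0.07.

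Of the stress response list 18 of 23 members were lower with the combination than with EPZ004777 and 7 were lower than with MI-2-2, against 9.46% and 3.95% of all genes. Of the tRNA synthetases 11 and 6 of 18 were lower in these comparisons. B cell surface antigens were higher than with EPZ004777 in 11 of 24 and higher than with MI-2-2 in 10, against 10.1% and 6.83% of all genes, and 2 were lower than with EPZ004777. Of the KMT2A fusion targets 10 of 25 were lower than with EPZ004777 and 9 lower than with MI-2-2, while 3 were lower than DMSO with EPZ004777 and 6 with MI-2-2, against 2.05% and 6.67% of all genes. With EPZ004777 alone 6.63% of all genes were called against DMSO, 4.58% higher, and with MI-2-2 alone 12.6%, 5.91% higher. Members of the stress list fell in 1 case with EPZ004777 and in 16 with MI-2-2, none rose with either, and their median changes were -0.16 and -0.64. Of the B cell surface antigens 6 rose with EPZ004777 and 5 with MI-2-2. These comparisons share the combination arrays or the DMSO arrays, so their counts are not independent of each other.

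Adding up both single changes in log2 units, 269 genes (1.93%) were off that sum with the combination, 1.03% of all genes above it and 0.898% below. Of these, 92 rose beyond the sum and 35 fell beyond it, 59 rose and 16 fell less than the sum, and 67 were not called against DMSO. MS4A1 lay 2.71 ± 0.22 above the sum, UTS2† 2.67 ± 0.26 and RUBCNL 2.42 ± 0.20. HBD read 7.25, 6.97 and 7.14 with the combination, 4.21, 4.55 and 4.27 with EPZ004777, 4.25, 4.21 and 4.83 with MI-2-2 and 3.98 and 4.05 with DMSO, and since it was tested only through its combination arrays its departure of 2.36 ± 0.23 is a description. GPR171 (2.23 ± 0.17), a G protein-coupled receptor, was called with neither compound alone. SYT16 (2.23 ± 0.15), of the synaptotagmin family, and WNT8A (1.84 ± 0.24), a Wnt ligand, were also raised by MI-2-2, by 0.40 ± 0.11 and 1.27 ± 0.18. MME† exceeded the sum by 1.59 ± 0.15.

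Among falls, PRSS12 departed from the sum by -2.20 ± 0.09, RUNX2 by -1.54 ± 0.11, BALR6 by -1.38 ± 0.08 and IGF2BP2 by -1.20 ± 0.10. RUNX2 read 10.18, 10.24 and 10.35 with the combination, 11.85, 11.88 and 11.88 with EPZ004777, 11.62, 11.54 and 11.76 with MI-2-2 and 11.75 and 11.68 with DMSO. Only the combination arrays of RUNX2 were apart from DMSO by more than 1 unit. GNAQ, a G protein subunit, was called higher with EPZ004777 (0.52 ± 0.10) and lower with the combination (-0.62 ± 0.10), a departure of -1.36 ± 0.13. LRRC15 behaved alike, higher with EPZ004777 (1.02 ± 0.15) and lower with the combination (-1.06 ± 0.15). Short of the sum were HOPX† (-1.90 ± 0.11), ABCA1† (-1.31 ± 0.16), RNF175 (-1.88 ± 0.12) and CA2, a carbonic anhydrase that EPZ004777 raised by 2.40 ± 0.16 and the combination by 0.76 ± 0.16. ANGPT1, lowered by EPZ004777 (-1.47 ± 0.08), was lowered less by the combination (-0.74 ± 0.08), which differed from EPZ004777 by 0.74 ± 0.07. The departures numbered 109 without DMSO replicate 3, 135 without DMSO replicate 2, 140 without EPZ004777 replicate 2, 169 without MI-2-2 replicate 3 and 173 without MI-2-2 replicate 1.

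RS4;11 was set against both other B-precursor lines by fitting 32 arrays together. Its effect in RS4;11 differed from that in SEM, the other KMT2A-AFF1 line, for 1924 of 14943 genes (12.9%, with 6.57% above SEM and 6.3% below). From that in REH it differed for 2396 (16%, with 7.94% above REH and 8.1% below). In that fit 26.2% of genes were called against DMSO in SEM and 16.4% in REH, 8.28% higher and 8.13% lower. Of 3269 genes called in RS4;11 and tested there, 938 differed from SEM and 1508 from REH. These genes were picked by calls on the same RS4;11 arrays, so the shares and directions follow in part from that choice. Of the 938, 467 had risen and were above SEM, and 223 had fallen and were below it. Of the 1508, 828 had risen and were above REH, and 660 had fallen and were below it. Both differences share the RS4;11 arrays, and that from REH had 1526 calls without RS4;11 DMSO replicate 3 and 1561 without RS4;11 DMSO replicate 2.

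Several B cell genes differed from REH. The effect on JCHAIN exceeded that in REH by 5.17 ± 0.18 (adjusted p = 5.73e-16), on MS4A1 by 4.82 ± 0.29 and on UTS2† by 6.12 ± 0.28. MME† (2.60 ± 0.14), TNFRSF17 (3.16 ± 0.21) and IKZF3 (1.91 ± 0.27) differed likewise, and in REH itself their effects were -0.10 ± 0.09, -0.30 ± 0.14 and -0.07 ± 0.18. Among falls, SOCS2 differed by -3.42 ± 0.26, RUNX2 by -2.35 ± 0.36 and CTSH† by -2.16 ± 0.17. The stress gene CHAC1 had an effect of 0.63 ± 0.22 in REH and differed by -2.70 ± 0.33, and TRIB3 differed by -0.79 ± 0.23, with an effect of -1.15 ± 0.16 in REH.

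**Figure D5:**
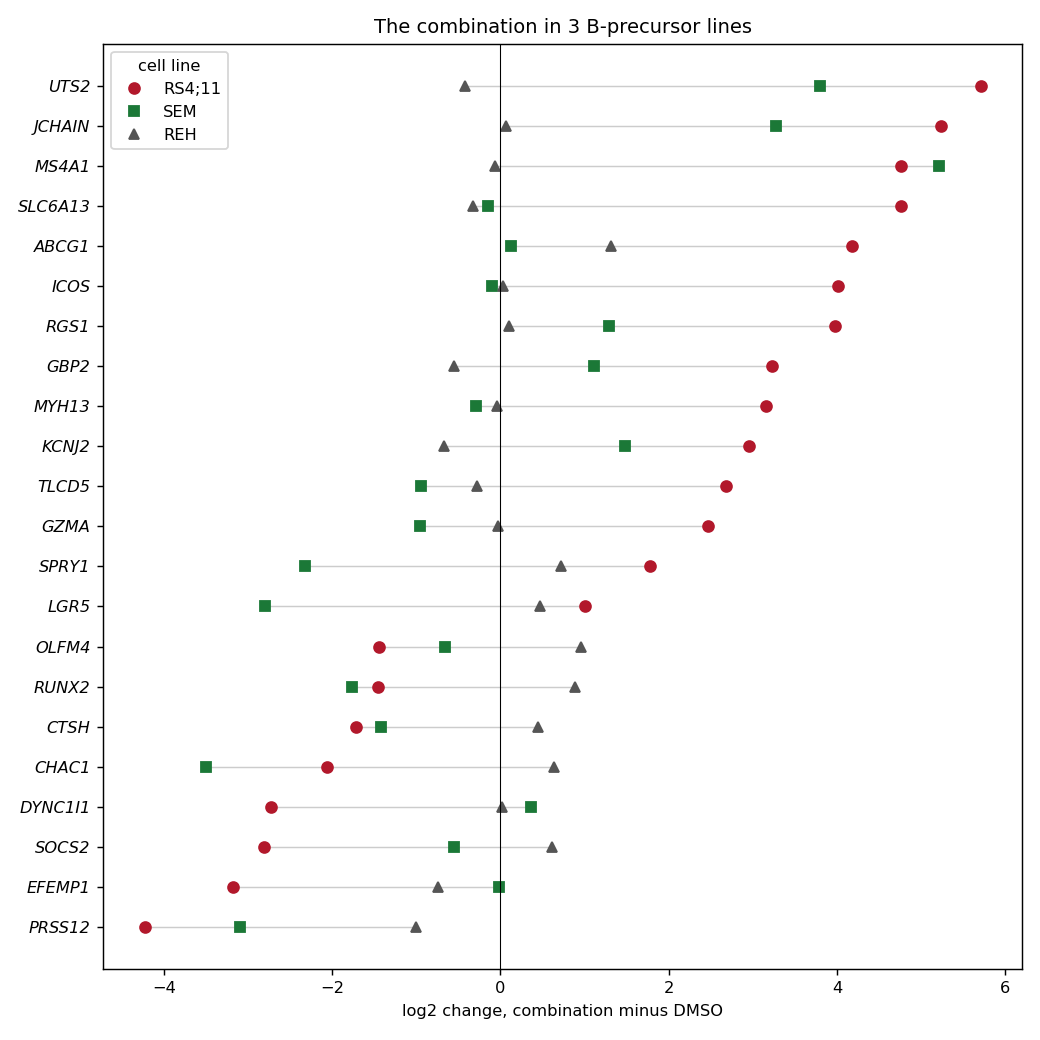
Log2 change (combination minus DMSO) in RS4;11 (red circles), SEM (green squares) and REH (grey triangles) for the genes with the largest called differences between RS4;11 and REH, and the largest differences from SEM with RS4;11 higher. MS4A1 shows 4.76 in RS4;11, 5.22 in SEM and -0.07 in REH, while ICOS shows 4.01, -0.10 and 0.03.

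Some of the largest changes differed between RS4;11 and SEM and others did not pass the test of a difference. MS4A1 changed by 5.22 ± 0.24 in SEM, and the difference was -0.46 ± 0.32 (adjusted p = 0.439). P2RY10 (-0.13 ± 0.25), CD28 (0.20 ± 0.38) and RUNX2 (0.31 ± 0.40) did not pass either, which does not show that they are equal. ICOS had an effect of -0.10 ± 0.15 in SEM, a difference of 4.12 ± 0.20, and SLC6A13† one of -0.15 ± 0.28, a difference of 4.91 ± 0.38. ABCG1† (4.06 ± 0.27) and MYH13 (3.45 ± 0.13) were also higher in RS4;11, whereas for ABCA1† the difference was 0.26 ± 0.26 (adjusted p = 0.61). SPRY1 was called in opposite directions, 1.78 ± 0.12 in RS4;11 and -2.33 ± 0.13 in SEM. IGF2BP2 fell in RS4;11 and rose in SEM (0.97 ± 0.17), a difference of -2.21 ± 0.23. Falls that were larger in SEM included ERG† (-2.77 ± 0.09 there, difference 1.57 ± 0.12) and PROM1† (-2.23 ± 0.11, difference 1.22 ± 0.15). The myeloid genes LYZ† and MPEG1 rose more in SEM, by 6.33 ± 0.19 (difference -4.95 ± 0.26) and 6.29 ± 0.25 (difference -3.02 ± 0.33). PRL, the hormone prolactin, changed by 5.49 ± 0.86 in SEM and was not called in RS4;11, where it was high in both groups (13.06, 13.10 and 13.04 with the combination and 13.12 and 13.10 with DMSO).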

How the data were processed

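Gene expression was measured on Affymetrix arrays. The table was deposited as log2 signal, 1 value a probe set, which the authors made with RMA in affy under R 3.0.2, per the submitters' processing notes. RMA adjusts the background, makes the distributions of the arrays equal and sums probes to 1 value a probe set, so a shift common to most genes would be removed. The table gives no raw intensities here. Of the RS4;11 arrays 11 were used: 3 combination, 3 EPZ004777, 3 MI-2-2 and 2 DMSO.

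Probe sets with 1 gene symbol in the platform annotation were kept where at least 2 arrays lay above percentile 40 of the array, and each gene was read by its probe set of highest mean, which left 13921 of 19775 genes. Genes outside that filter have no test. The 11 arrays were fitted together in limma 3.58.1 under R 4.3.3 with moderated variances, and p-values were adjusted by Benjamini-Hochberg over all genes, with calls under 0.05. Effects in RS4;11 were set against those in SEM and REH in 1 fit of 32 arrays and 14943 genes. The fit was tested on simulated data with known changes. It recovered 55% of genes changed by 0.5 on the log2 scale, 96% of those changed by 1 and 100% of those changed by 2. Of its 158 calls 5 were false. A gene with a small change can thus be missed.

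The genes named are the 25 largest called changes in each direction with no overlap of the groups, up to 6 called members in each direction of 40 gene lists, the 8 largest in each direction of the other comparisons, the 10 smallest p-values in each direction, and the targeted genes, with uncalled list members given as values. The members, the lists and this rule were chosen with earlier results of these data known. Whether replicate numbers pair the arrays was not settled, and the main fit left pairing out. Deviations from the group mean correlated at -0.36 to 0.24 over 15 same-number pairs, and 2 of them at over 0.1. Pairs with other numbers gave -0.29 to 0.33. In such small groups the deviations are tied to each other, those of the 2 DMSO arrays being mirror images. These correlations therefore cannot show whether the arrays were paired. The alternatives tried were no filter, quantile or median scaling, the mean of all probe sets, a replicate block, a fit of all 44 human arrays, array weights, RNA quality covariates, only the 5 arrays compared, a threshold of 0.01 and each array left out.

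Promoter sequences are those of RefSeq on GRCh38.p14, matched by symbol, from 250 bases before to 50 after the first start listed for a gene.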

Additional observations from a re-analysis of the deposited data

Results flagged for a closer look

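The effect of the combination in RS4;11 differed from that in SEM for 1924 genes by the test of the difference itself. The 8 largest differences with RS4;11 above SEM were SLC6A13† at 4.91, ICOS at 4.12, SPRY1 at 4.11, ABCG1† at 4.06, LGR5 at 3.80, TLCD5 at 3.62, MYH13 at 3.45 and GZMA at 3.42 (log2). The 8 with RS4;11 below SEM were PRL at -5.54, RNASE2 at -5.06, LYZ† at -4.95, TMEM119 at -4.76, VCAN at -4.42, RBM47† at -4.36, GPR183 at -4.16 and OLFML3 at -4.09. RNASE2, VCAN, GPR183 and OLFML3 were too dim on the RS4;11 arrays to be tested there.

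From REH the effect differed for 2396 genes by the same test. The differences with RS4;11 above REH were largest for UTS2† at 6.12, JCHAIN at 5.17, SLC6A13† at 5.08, MS4A1 at 4.82, ICOS at 3.98, RGS1† at 3.87, GBP2 at 3.78 and KCNJ2 at 3.62. Those with RS4;11 below REH were largest for SOCS2 at -3.42, PRSS12 at -3.22, DYNC1I1† at -2.74, CHAC1 at -2.70, EFEMP1† at -2.43, OLFM4† at -2.41, RUNX2 at -2.35 and CTSH† at -2.16.

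Probe sets outside the comparisons of genes also moved. Of 5759 tested probe sets with no gene symbol 1077 were called, 755 higher and 322 lower in combination cells (18.7%), and of 1308 with several symbols 197 were called, 97 higher and 100 lower (15.1%).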

How the results depend on the processing

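Of 298 named genes and list members called in combination against DMSO, 189 were called under every alternative tried and 109 lost the call in at least 1, of which 5 also changed sign. With 1 array left out, calls numbered 1803 to 3309 against DMSO, 1927 to 2607 against EPZ004777, 983 to 1315 against MI-2-2, 109 to 263 for the departure from the sum, 1300 to 1854 for the difference from SEM and 1526 to 3286 for that from REH. With only the 5 arrays compared, 2456 genes were called. With the replicate block, calls were 2743 against DMSO, 2408 against EPZ004777, 1250 against MI-2-2 and 159 for the departure. Array weights gave 550 departures and 3246 differences from SEM. The GAPDH covariate gave 762 calls against MI-2-2 and 103 departures, with AOPEP and LTBP1 no longer called as departures. An adjusted p under 0.01 left 1832 calls against DMSO, 1553 against EPZ004777, 683 against MI-2-2 and 78 departures. Centring each array on its median moved the median change of all genes to -0.10, against -0.04, and the share of calls that were rises to 35.9%, against 47.7%.

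The sign turned for 9 genes, in settings that averaged the probe sets or chose them anew, and the cause was not tested gene by gene. The mean of all probe sets gave SENP6 -0.062, CD79B -0.037, CCND3 0.18, RUNX3 0.46, HSPA5 -0.28 and CDKN1C 0.32. The fit of all 44 human arrays, which chose other probe sets, gave THBS1 -0.20, CYBB 1.12 and CDKN1C 1.64. Without 1 array SELPLG ranged over -0.10 to 0.66. There the probe set was chosen anew from the arrays left, and the 2 probe sets of SELPLG gave -0.20 and 0.52 on all arrays. Arrays have no sequencing depth, and genes near background were tested only with no filter, where 3036 genes were called against DMSO.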
